A study of Mus musculus with 8 samples.

Results

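The genes described here encode the machinery that builds ribosomes in the nucleolus. A list of 45 mouse genes was taken by symbol, with earlier results of these data known. Of these, 42 have at least 1 probe set that names no other gene. These 42 genes are covered by 72 probe sets of 20380 with a single symbol, and all 42 were among the 9294 genes tested of 12393 measured. Dkc1, Nob1 and Mrto4 were not analysed here. By step, the genes tested were 10 of 11 for the small nucleolar RNA particles and the nucleolar scaffold, 11 of 12 for the small subunit, 17 of 18 for the large subunit, and 4 of 4 subunits of RNA polymerase I.

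Ribosomes are assembled in the nucleolus, where RNA polymerase I transcribes a long ribosomal RNA precursor. Small nucleolar RNAs in protein particles (snoRNPs) guide its chemical modification, and a large particle built on the U3 small nucleolar RNA cuts out the part that becomes the small subunit. Separate sets of GTPases, helicases and WD-repeat proteins then mature the small and the large subunit. Growing and dividing cells, basal keratinocytes of the epidermis among them, depend on this supply, and the transcription factor Myc is known to bind at many of these genes.

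The RNA came from primary keratinocytes of the mouse, all of which carried an empty retrovirus, a vector without an added gene, and was hybridised to 8 Affymetrix arrays. By their titles 2 arrays were untreated, and tamoxifen had been given 20, 40, 60, 120, 180 or 240 min earlier for 1 array each. Tamoxifen is an estrogen receptor ligand that is also used to switch on engineered fusion proteins carrying part of that receptor. Strain, age and tamoxifen dose are not given in the labels, and a note common to the 8 samples gives tamoxifen also for the untreated ones, so the titles were followed. No array of cells handled for the same times without tamoxifen was analysed here, and the effect of tamoxifen therefore cannot be told apart from that of handling or time. Every level below is log2(intensity + 16) of 1 probe set, and every difference is a difference of such levels, so that levels of different genes are not comparable.

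The arrays had median intensities between 192 and 198 and highest intensities between 20138 and 20474. Krt5, Krt14, Col17a1 and Sfn, markers of basal keratinocytes and stratified epithelium, lay at or above percentile 98 of the probe sets, Itgb4 at 95.3, Itga6 at 92.8, Trp63 at 86.7 and Krt15, also a basal keratin, at 41.4. The melanocyte genes Dct, Pmel and Tyrp1 lay at or above percentile 93.8 and Tyr at 73.3. The mean of 31 genes of G2 and M phase was 9.64 and 8.88 in untreated arrays 1 and 2, 9.12, 9.44 and 9.32 at 20, 40 and 60 min, and 8.89, 8.98 and 9.55 at 120, 180 and 240 min. Untreated array 2 and the arrays at 120 and 180 min were thus the low ones in cell cycle genes. The 7 fibroblast markers tested (of 9) averaged 8.09 and 8.14 without treatment, 7.99 to 8.01 in the first hour and 8.07 to 8.23 later. The 4 leukocyte and Langerhans cell markers tested (of 8) averaged 7.72 and 7.85, then 7.58 to 7.64, then 7.70 to 7.88. In bulk RNA, fewer cells of a type and less RNA per cell cannot be told apart.

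The start sites of the genes are shown because their sequence was not used to choose the genes. RefSeq start site windows (assembly GRCm38.p6, from 250 bases before to 50 after the start) were matched by symbol for 40 of the 45 genes. The E-box core CACGTG, which reads the same on both strands and is bound by Myc and Max among other factors, occurred in the windows of 7 of the 40 genes (17.5%). Of all 27025 genes with a window 8.09% had it. Among the genes tested it occurred in 7 of 37 members with a window (18.9%), against 11.9% of 7502 genes. Those 7 genes were Imp4, Nle1, Nop2, Pes1, Pno1, Tsr1 and Wdr43. The core CCGGAAG of ETS-family sites, searched on both strands, occurred in 13 of the 40 genes (32.5%), against 9.93% of all genes. Among the genes tested it occurred in 13 of 37 members with a window (35.1%), against 19.9% of genes. Those 13 members were Brix1, Ddx10, Ebna1bp2, Gar1, Heatr1, Nhp2, Nolc1, Nop2, Polr1c, Ppan, Rrp15, Tsr1 and Wdr74. Tsr1 and Nop2 have both motifs, which do not overlap. The stretches below run 5′ to 3′ on the strand of the gene, from 150 bases before the start to 30 after, in the stated assembly, with motif matches in capitals. The first 4 hold CACGTG just inside the transcript, the next 2 hold CCGGAAG before the start, and the last 2 belong to Nop56 and Nop58 and hold neither.
Wdr43 (chr17:71616065-71616244, plus strand): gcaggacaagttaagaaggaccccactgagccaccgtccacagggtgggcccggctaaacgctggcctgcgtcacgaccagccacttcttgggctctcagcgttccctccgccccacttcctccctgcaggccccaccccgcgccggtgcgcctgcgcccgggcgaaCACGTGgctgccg
Tsr1 (chr11:74897930-74898109, plus strand): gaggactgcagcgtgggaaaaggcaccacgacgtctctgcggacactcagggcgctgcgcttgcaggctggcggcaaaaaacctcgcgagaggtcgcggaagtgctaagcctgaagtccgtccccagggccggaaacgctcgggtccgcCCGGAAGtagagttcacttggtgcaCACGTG
Pes1 (chr11:3963825-3964004, plus strand): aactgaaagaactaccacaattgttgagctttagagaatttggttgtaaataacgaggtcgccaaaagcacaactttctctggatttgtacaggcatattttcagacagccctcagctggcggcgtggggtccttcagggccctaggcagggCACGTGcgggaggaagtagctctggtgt
Nle1 (chr11:82908366-82908545, minus strand): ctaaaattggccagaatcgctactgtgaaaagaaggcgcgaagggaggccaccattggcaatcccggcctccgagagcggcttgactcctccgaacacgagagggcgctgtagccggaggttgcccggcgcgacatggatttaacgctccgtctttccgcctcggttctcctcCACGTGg
Nolc1 (chr19:46075697-46075876, plus strand): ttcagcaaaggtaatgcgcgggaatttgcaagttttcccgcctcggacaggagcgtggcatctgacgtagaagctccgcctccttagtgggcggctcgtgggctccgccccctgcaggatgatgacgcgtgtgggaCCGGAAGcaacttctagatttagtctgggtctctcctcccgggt
Wdr74 (chr19:8735689-8735868, plus strand): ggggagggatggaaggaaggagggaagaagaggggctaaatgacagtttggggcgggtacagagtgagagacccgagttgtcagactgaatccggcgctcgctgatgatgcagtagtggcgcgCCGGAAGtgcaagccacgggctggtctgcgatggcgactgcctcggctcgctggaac
Nop56 (chr2:130274262-130274441, plus strand): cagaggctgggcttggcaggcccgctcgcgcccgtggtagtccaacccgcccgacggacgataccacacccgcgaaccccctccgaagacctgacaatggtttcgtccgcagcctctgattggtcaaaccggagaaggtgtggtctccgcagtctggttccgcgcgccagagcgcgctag
Nop58 (chr1:59684856-59685035, plus strand): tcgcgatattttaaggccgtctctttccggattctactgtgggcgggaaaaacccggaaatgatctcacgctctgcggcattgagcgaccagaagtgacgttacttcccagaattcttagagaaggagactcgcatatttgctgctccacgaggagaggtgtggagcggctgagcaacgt
In Wdr43, Tsr1, Pes1 and Nle1 the E-box began at base 18, 25, 3 and 24 of the transcript. The ETS core began 14 bases before the start of Nolc1, 27 before that of Wdr74 and 1 before that of Tsr1. A match is a description of letters and not of a bound factor. Of the genes tested that lay above both other groups at 20 to 60 min, as defined below, 3 of 15 with a window had the E-box and 4 of 15 the ETS core, against 4 of 22 and 9 of 22 of the others.

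At 20, 40 and 60 min these genes lay slightly above the untreated arrays in most members, and at 120, 180 and 240 min they lay near the untreated level again. The mean over the 42 genes was 10.23 and 10.15 in untreated arrays 1 and 2, 10.26, 10.32 and 10.35 at 20, 40 and 60 min, and 10.17 at each of 120, 180 and 240 min. The 3 first-hour arrays were therefore the highest ones, and the later arrays lay between the 2 untreated arrays. The differences were small, and no gene passed adjustment over the 9294 genes.

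**Figure D1:**
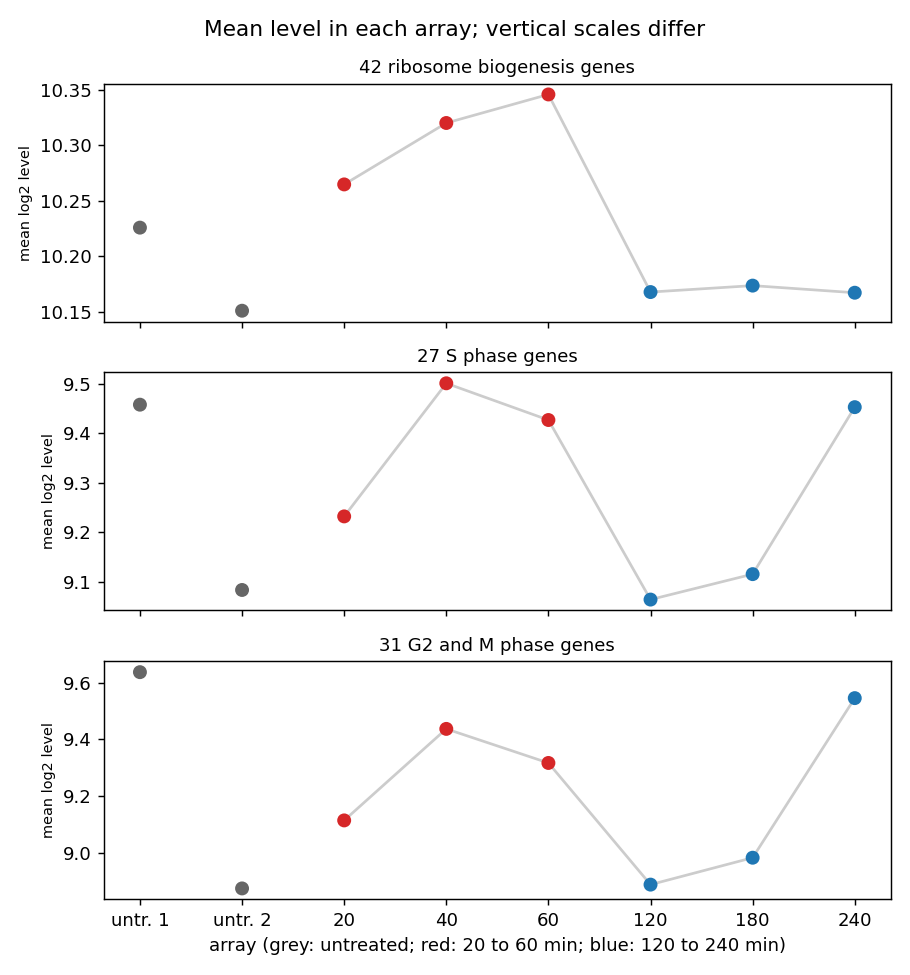
Mean log2(intensity + 16) over 42 nucleolar genes, 27 S phase genes and 31 G2 and M phase genes in each of the 8 arrays (grey untreated, red 20 to 60 min, blue 120 to 240 min), in 3 panels with different vertical scales. The mean of the nucleolar genes is highest at 60 min (10.35) and 10.17 in all 3 later arrays, while the G2 and M phase mean is low in untreated array 2 and at 120 and 180 min and 9.55 at 240 min.

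Of the 42 genes, 38 had a higher mean at 20 to 60 min than without treatment and 4 a lower one, where 44.5% of all genes were higher and 55.5% lower. The median difference was 0.11, against -0.01 over all genes. In 25 members all 3 first-hour arrays lay above both untreated arrays, as they did in 16.1% of all genes, and in 2 members they lay below, as in 20.1%. The unadjusted p of limma was under 0.05 for 15 members, all higher, against 6.67% of all genes higher and 7.19% lower. None passed at an adjusted p under 0.05 (0% of genes), and the smallest adjusted p (limma) was 0.331 both for the members and for all genes.

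Between the first hour and the later arrays, 39 of the 42 genes had a lower mean and 3 a higher one, where 43.8% of all genes were lower and 56.2% higher. The median difference was -0.11, against 0.02 over all genes. All 3 later arrays lay below all 3 first-hour arrays in 23 members, against 8.50% of all genes, and above them in 1 member, against 13.6%. Unadjusted p (limma) was under 0.05 for 20 members that were lower, against 7.45% of all genes, and for 1 that was higher, against 12.0%. No member passed at an adjusted p under 0.05 (0% of genes). The smallest adjusted p (limma) was 0.175 among the members and 0.0617 among all genes. Both comparisons rest on the same 3 first-hour arrays, so they are not independent of each other. In 17 members the first-hour arrays lay above all 5 other arrays, as in 5.48% of all genes.

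The later arrays lay close to the untreated arrays. Of the 42 genes, 20 were higher (55.2% of all genes) and 22 lower (44.8%) at 120 to 240 min, with a median difference of -0.01 against 0.01 over all genes. These counts rest on the untreated arrays: 10 were higher and 32 lower without untreated array 2, and 27 higher and 15 lower without untreated array 1. Only Pes1 and Bysl lay above both untreated arrays in all 3 later arrays (9.26% of all genes did), and Gnl3, Rrp1b, Tsr1 and Polr1b lay below (7.98%). A further probe set of Bysl lay below both untreated arrays in all 3 later ones, with -0.0995 where the one used gave 0.0314. Without untreated array 1, 17 members in place of 2 lay above, and without untreated array 2, 18 in place of 4 lay below. Without the 240 min array both counts were 8. For the counts with an array left out, the shares of all genes were not counted, and the shares given here do not apply to them. No member had an unadjusted p (limma) under 0.05 in this comparison, against 1.36% of all genes higher and 1.82% lower, and the smallest adjusted p among the members was 0.999.

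The array with the highest value was the one at 60 min for 23 members (23.4% of all genes) and at 40 min for 13 (8.25%). It was the one at 20 min for 3 (4.07%) and at 120 min for 3 (21.7%). Thus 39 of 42 had their highest value within the first hour, against 35.7% of all genes. The lowest value fell in untreated array 2 for 17 members (13.2% of all genes), at 240 min for 12 (8.72%) and at 120 min for 8 (15.9%). For 4 members it fell at 180 min (7.22%) and for 1 at 40 min (20.9%). At 20, 40 and 60 min, 30, 35 and 35 members lay above both untreated arrays, against 28.1%, 30% and 39.9% of all genes. At 120, 180 and 240 min the counts were 14, 11 and 10, against 38.0%, 33.7% and 34.7%. The median difference from the untreated mean was 0.07, 0.12 and 0.13 at 20, 40 and 60 min.

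Few members were far from both untreated arrays. A distance of at least 0.25 above both was found at 60 min for 5 members, Nop58, Wdr43, Wdr74, Nop2 and Znrd1 (4.14% of all genes), and at 40 min for Znrd1 alone (1.31%). At 240 min Polr1b lay at least 0.25 below both (0.603%). The 2 untreated arrays themselves differed: array 2 was the lower one in 37 of 42 members, against 42.5% of all genes, with a median difference of -0.06. Measured from untreated array 2 alone, 12 members lay at least 0.25 above it at 60 min, 6 at 40 min, 4 at 20 min and 2 at 240 min. As far below it lay 2 members at 240 min and 1 each at 40 and 60 min. The shares of all genes by that rule were not counted. The cell cycle means of untreated array 2 were also low, as given above. Fibroblast markers were lower in 7 of 7 at 20 to 60 min and leukocyte markers in 4 of 4, where 55.5% of all genes were lower. Those 4 were Cd3e, H2-Aa, H2-Ab1 and H2-Eb1, while Dcn, Lum, Ptprc, Cd74, Cd207 and Lyz2 were below the filter. The part of these cell types in the members' differences was not tested. Nor was that of RNA quality, for which the Actb signal at the 3′ end exceeded that at the 5′ end by 0.20 at 60 min and by 0.26 to 0.28 in the other arrays. With the G2 and M phase mean as a covariate the median differences were 0.11 at 20 to 60 min against untreated and -0.11 from there to 120 to 240 min. The G2 and M phase mean varied more within the windows than between them, so adjusting for it could shift these medians only a little. The part of the cell cycle in the members' differences was not tested. With that covariate 7 members passed in limma at 20 to 60 min (6.29% of all genes did) and 9 between the windows (5.71%). Between the windows 23 members passed with array weights (30.8%) and 11 without the 240 min array (11.0%).

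**Figure D2:**
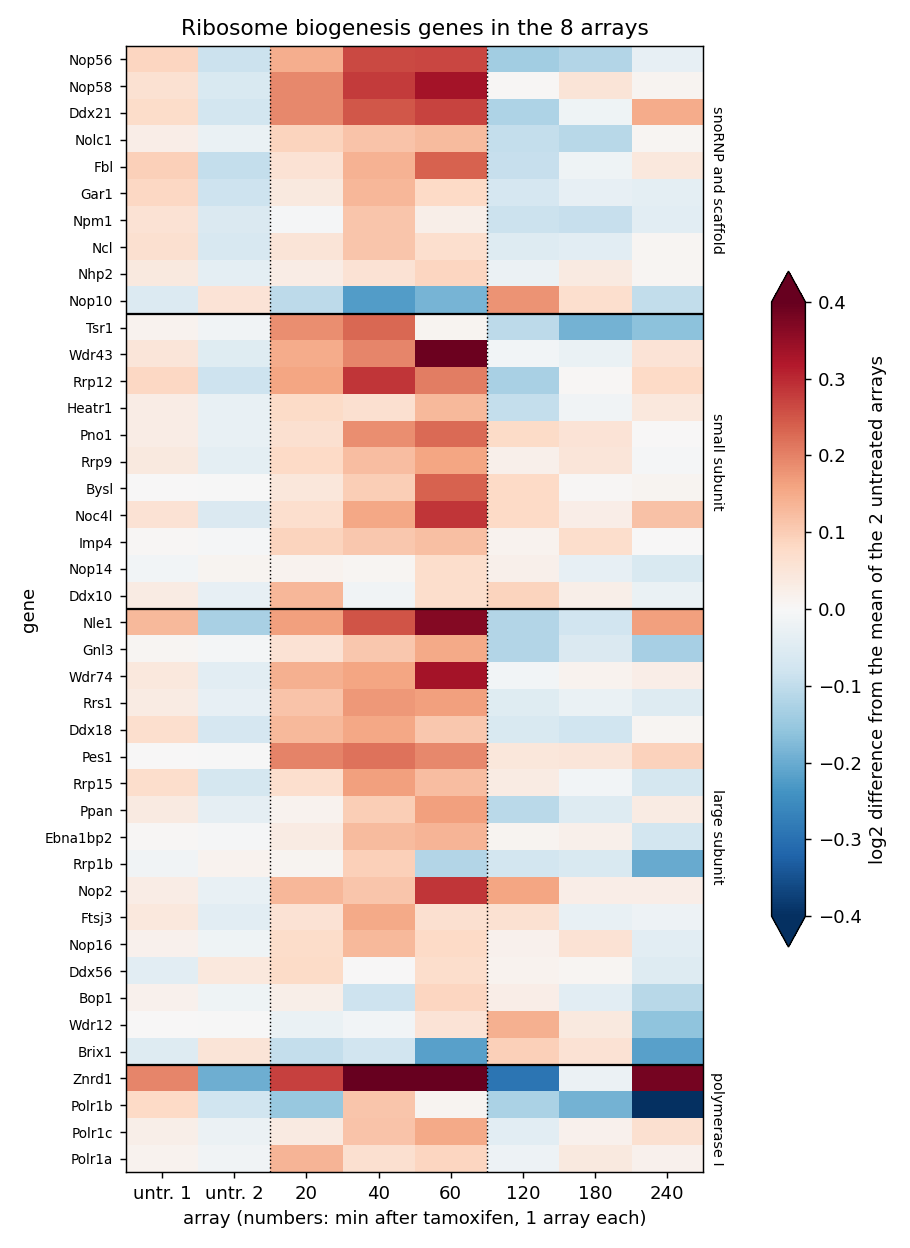
Difference of each of the 42 genes from its untreated mean (log2) in each of the 8 arrays, with genes in rows grouped by step, arrays in columns and a colour scale clipped at its ends. The first-hour columns are mostly above 0, with 38 genes higher on average, and Nop10 and Brix1 are the members that lie below both untreated arrays in all 3 of them.

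The core proteins of the snoRNPs showed the pattern most clearly in the pair that scaffolds the C/D particles. Nop58 was at 10.93 and 10.82 in the untreated arrays, at 11.07, 11.15 and 11.21 at 20, 40 and 60 min, and at 10.88, 10.93 and 10.89 at 120, 180 and 240 min. All 3 first-hour arrays lay above the others, by 0.27 ± 0.06 (SE; 3 against 2 arrays) over untreated, a 1.20-fold level, and the later arrays were lower by 0.25, with adjusted p (limma) of 0.331 and 0.175. Nop56, its partner in the same particle, was at 11.43 and 11.26, then at 11.49, 11.61 and 11.62, and later at 11.21, 11.23 and 11.31. The first-hour arrays of Nop56 again lay above all others, with a difference of 0.23 ± 0.07 from untreated and of -0.32 ± 0.06 from the first hour to the later arrays, the smallest unadjusted p of that comparison in this step (limma, adjusted p = 0.175). Without untreated array 2 the first of these was 0.14. Fbl, fibrillarin, the methyltransferase of the C/D particles, was at 11.80 and 11.61, then at 11.77, 11.85 and 11.94, and later at 11.62, 11.69 and 11.75. Its first-hour arrays overlapped the untreated ones and lay above the later ones (-0.17 ± 0.07). From untreated it differed by 0.14 ± 0.08, by 0.0496 without untreated array 2 and by 0.24 without untreated array 1.

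Nolc1, a chaperone that carries snoRNPs to the nucleolus, was at 10.33 and 10.27, then at 10.39, 10.41 and 10.43, and later at 10.20, 10.19 and 10.31. Again the first hour lay above all other arrays, with a difference of -0.17 ± 0.05 to the later arrays (adjusted p = 0.184, limma). Its 2 further probe sets gave 0.06 and -0.0841 from untreated and -0.10 and -0.0267 to the later arrays. Ddx21, an RNA helicase that works both at ribosomal DNA and in precursor processing, was at 10.56 and 10.42, then at 10.68, 10.74 and 10.76, and later at 10.37, 10.47 and 10.64. Its first-hour arrays were also the 3 highest (0.24 ± 0.08 over untreated; later arrays -0.23 ± 0.07), although the array at 240 min lay above both untreated arrays. A further probe set of Ddx21 differed by 0.06 in the first comparison and -0.20 in the second, and between untreated and the later arrays it gave -0.14 where the one used gave 0.0025.

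Nop10, a small protein of the H/ACA particles that make pseudouridine, went the other way. It was at 11.77 and 11.87 in the untreated arrays, at 11.71, 11.60 and 11.63 in the first hour, and at 12.00, 11.89 and 11.72 later. Its first-hour arrays lay below all 5 others, with differences of -0.17 ± 0.08 from untreated and 0.22 ± 0.07 to the later arrays (adjusted p = 0.191, limma). A second probe set of Nop10 gave -0.13 and 0.16. Its partners Gar1 and Nhp2 differed by 0.08 and 0.06 from untreated and by -0.13 and -0.05 afterwards, so the values of the H/ACA proteins had different signs. The abundant scaffold proteins Ncl (nucleolin) and Npm1 (nucleophosmin) differed by 0.08 and 0.04, then by -0.11 and -0.12. In this step 9 of 10 genes were higher at 20 to 60 min, 4 of them without overlap with untreated (16.1% of all genes), with a median of 0.10. From there to the later arrays 9 of 10 were lower, 8 of them without overlap (8.50%), with a median of -0.15.

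**Figure D3:**
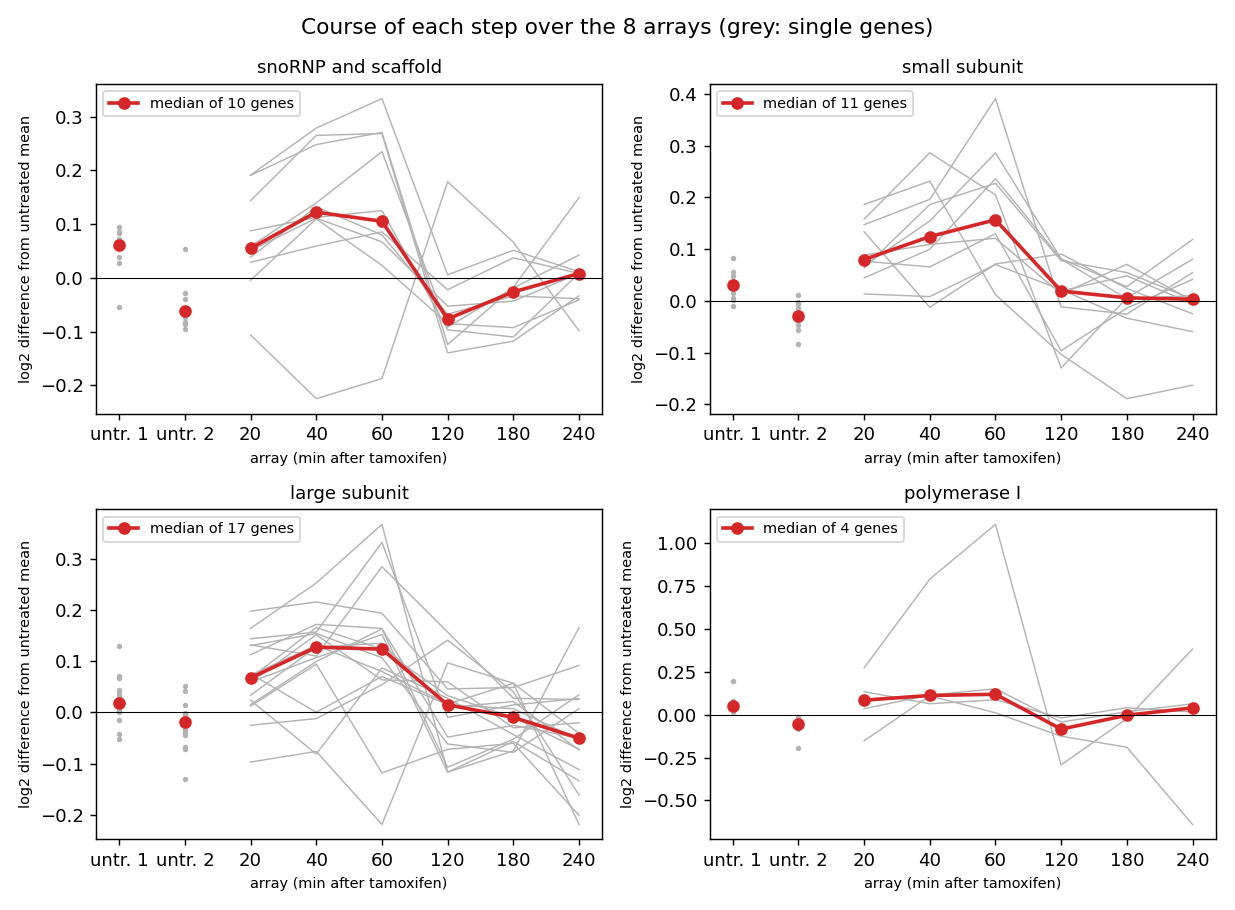
Log2 difference from the untreated mean in each array, in 4 panels by step with different vertical scales, with single genes in grey, the median of the step in red, and the 2 untreated arrays as unconnected points at the left. Most grey lines lie above 0 at 20, 40 and 60 min and scatter around 0 afterwards, the lowest first-hour line of the snoRNP panel is Nop10, and the line that reaches 1.11 at 60 min in the polymerase I panel is Znrd1.

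All 11 small subunit genes were higher at 20 to 60 min than untreated, 8 of them without overlap (16.1% of all genes), with a median of 0.13, and all 11 were lower afterwards, 6 without overlap (8.50%), with a median of -0.10. Tsr1, a GTPase-like factor of late small subunit maturation, was at 9.86 and 9.83 without treatment, at 10.03, 10.08 and 9.86 at 20, 40 and 60 min, and at 9.74, 9.66 and 9.69 later. The arrays at 20 and 40 min were high, the one at 60 min was level with untreated, and all 3 later arrays lay below both untreated ones. The difference between the windows was -0.29 ± 0.06 (adjusted p = 0.175, limma), and that from untreated to the later arrays -0.15 ± 0.07. Wdr43, a subunit of the U3-containing particle that is also linked to ribosomal DNA transcription, was at 9.60 and 9.50, then at 9.70, 9.75 and 9.94, and later at 9.54, 9.53 and 9.61. All first-hour arrays were above the others and 60 min was the highest, with differences of 0.24 ± 0.08 and -0.24 ± 0.07. A second probe set of Wdr43 gave 0.17 and -0.32, and between untreated and the later arrays the 2 probe sets gave 0.0056 and -0.15.

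Rrp12, needed to mature and export the small subunit precursor, was at 8.74 and 8.58, then at 8.82, 8.95 and 8.86, and later at 8.53, 8.66 and 8.74. No other array of Rrp12 reached those of the first hour (0.22 ± 0.08 over untreated, or 0.13 without untreated array 2, then -0.23 ± 0.07). Rrp9, which binds the U3 RNA, was at 9.67 and 9.60, then at 9.71, 9.76 and 9.79, and later at 9.65, 9.68 and 9.63. The 3 first-hour arrays were again the highest, by less (0.12 ± 0.05, then -0.10 ± 0.05). Pno1, a partner in the last cleavage of small subunit RNA, was at 10.38 and 10.32, then at 10.41, 10.53 and 10.57, and later at 10.42, 10.40 and 10.35. The first-hour arrays of Pno1 lay above untreated (0.16 ± 0.06), and its 120 min array overlapped them (-0.11 ± 0.05). Heatr1, a large scaffold protein of the early particle, was at 9.76 and 9.70, then at 9.81, 9.80 and 9.86, and later at 9.63, 9.72 and 9.77. The first hour was above all other arrays (0.09 ± 0.06, then -0.11 ± 0.05), while a dim further probe set, below the filter, gave -0.16 and 0.13. The remaining members were Noc4l, Bysl, Imp4, Ddx10 and Nop14, with differences between 0.03 and 0.17 from untreated and between -0.10 and -0.03 afterwards. A further probe set of Ddx10, above the filter, had the opposite signs, with -0.0418 and 0.0263.

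Of the 17 large subunit genes, 15 were higher at 20 to 60 min, 10 of them without overlap with untreated (16.1% of all genes), with a median of 0.10. Later 15 were lower, 8 without overlap (8.50%), with a median of -0.11. Gnl3, nucleostemin, a GTP-binding nucleolar protein that is abundant in proliferating cells, was at 11.10 and 11.08 without treatment, at 11.15, 11.20 and 11.25 in the first hour, and at 10.98, 11.04 and 10.96 later. It lay above both untreated arrays in every first-hour array (0.11 ± 0.05) and below both in every later one (-0.10 ± 0.05), and the windows differed by -0.21 ± 0.05 (adjusted p = 0.175, limma). Rrs1, which brings the 5S RNA particle into the large subunit precursor, was at 10.29 and 10.22, then at 10.37, 10.43 and 10.42, and later at 10.21, 10.23 and 10.20. The first hour of Rrs1 did not overlap any other array, with 0.15 ± 0.05 and then -0.19 ± 0.04 (adjusted p = 0.331 and 0.175, limma).

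Ddx18, an RNA helicase, was at 9.63 and 9.50, then at 9.69, 9.72 and 9.67, and later at 9.50, 9.48 and 9.57. Its first-hour arrays lay above all others (0.13 ± 0.06, then -0.17 ± 0.05), but the first value was 0.0633 without untreated array 2 and 0.20 without untreated array 1. Its 2 further probe sets gave 0.0397 and -0.0573 in the first comparison and -0.11 and -0.0364 in the second. Wdr74, a WD-repeat protein of large subunit maturation, was at 10.81 and 10.73, then at 10.91, 10.93 and 11.10, and later at 10.76, 10.78 and 10.80. The first-hour arrays were the 3 highest and 60 min stood above the other two (0.21 ± 0.07, then -0.20 ± 0.06). Nle1, which binds the remodelling ATPase of the large subunit precursor, was at 8.26 and 8.003, then at 8.30, 8.39 and 8.50, and later at 8.02, 8.06 and 8.30. Its first-hour arrays lay above untreated (0.26 ± 0.11) and its 240 min array reached the level at 20 min (-0.27 ± 0.09). The first value was 0.13 without untreated array 2 and 0.39 without untreated array 1.

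Pes1, Bop1 and Wdr12 form 1 complex of the large subunit, and their arrays did not run alike. Pes1 was at 9.91 in both untreated arrays, at 10.11, 10.13 and 10.10 in the first hour, and at 9.96, 9.96 and 10.00 later. The first-hour arrays of Pes1 lay 0.20 ± 0.05 above untreated (adjusted p = 0.331, limma), and the later ones lay between those levels, 0.14 below the first hour. Wdr12 was at 10.45 in both untreated arrays, at 10.43, 10.44 and 10.51 in the first hour, and at 10.59, 10.49 and 10.29 later, so its highest and lowest arrays were both late ones. Bop1 differed by 0.01 from untreated in the first hour and by -0.05 afterwards. The difference between these 3 genes was not tested.

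Brix1, a factor of the large subunit precursor, was the other gene whose first-hour arrays all lay below both untreated ones. It was at 11.63 and 11.73, then at 11.59, 11.61 and 11.46, and later at 11.78, 11.74 and 11.46. Its arrays at 60 and 240 min were the lowest, with differences of -0.13 ± 0.09 and 0.11 ± 0.08, and its second probe set gave -0.08 and -0.0018. The first difference was -0.0794 without untreated array 2 and -0.0865 without 60 min, and the second ranged from 0.0496 without 120 min to 0.2074 without 240 min. Rrp1b, which links a protein phosphatase to the nucleolus, was at 9.38 and 9.41, then at 9.41, 9.49 and 9.28, and later at 9.33, 9.34 and 9.20. The probe set used gave no clear difference in the first hour (-0.0038 ± 0.07) and -0.11 ± 0.06 afterwards, which ranged from -0.0582 without 40 min to -0.16 without 60 min. Its 2 other probe sets gave 0.19 and 0.08, then -0.30 and -0.13, so its sign in the first hour depends on the probe set and, as given in the closing section, on the scaling.
The remaining members were Nop2, an RNA methyltransferase, and Rrp15, Ppan, Ebna1bp2, Nop16, Ftsj3 and Ddx56. Their differences lay between 0.05 and 0.18 from untreated and between -0.14 and -0.06 afterwards.

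**Figure D4:**
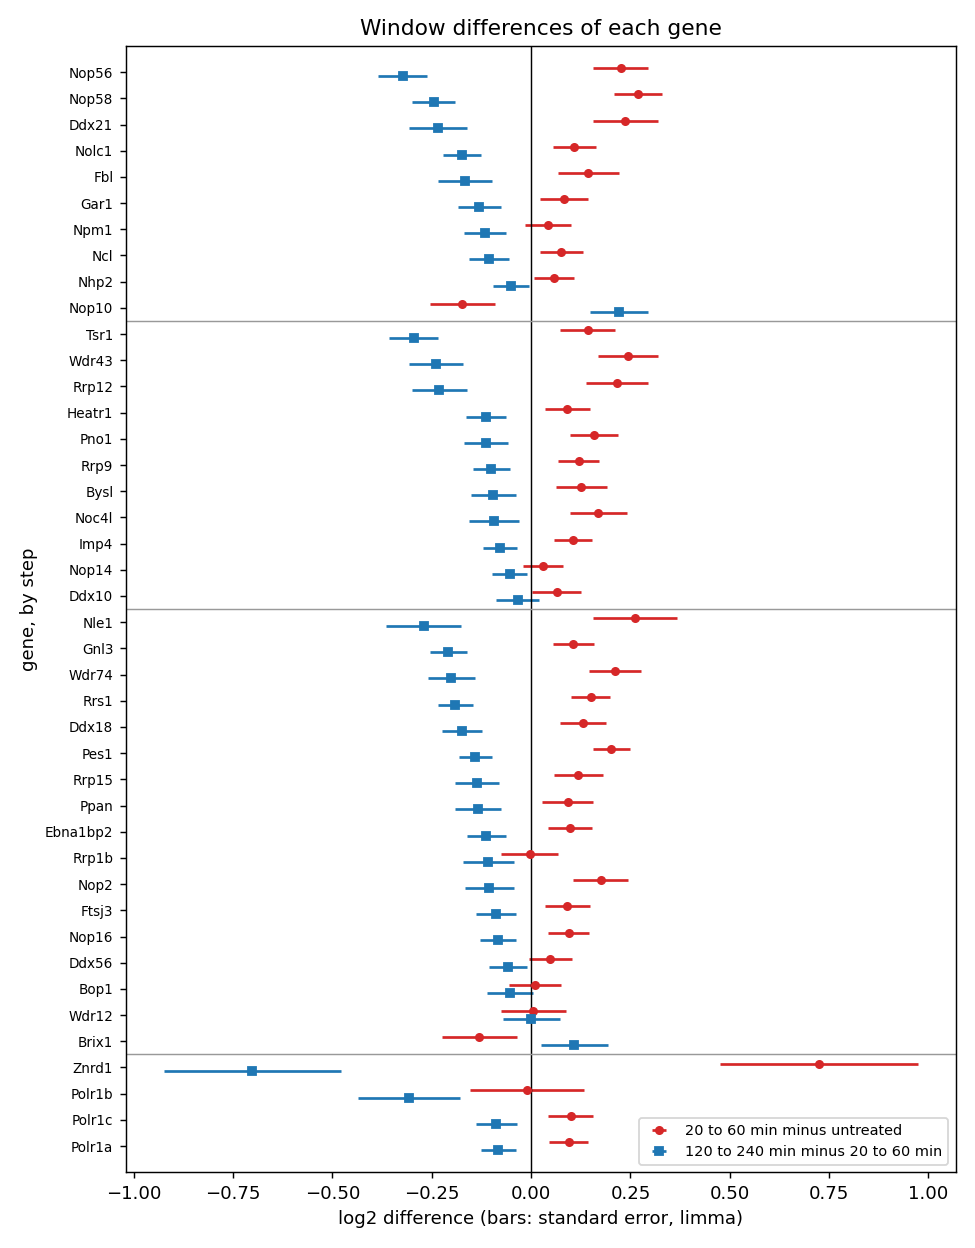
Log2 differences of the 42 genes, in rows by step, for 20 to 60 min minus untreated and for 120 to 240 min minus 20 to 60 min, with bars of 1 SE from the limma fit. Points of the first comparison lie mostly right of 0 (38 of 42) and those of the second mostly left (39 of 42), with Nop10 and Brix1 on the opposite sides and Znrd1 farthest out.

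The subunits of RNA polymerase I included the gene with the largest differences of the 42. Znrd1, a small subunit of the enzyme that is also called by newer names, was at 7.92 and 7.53 without treatment, at 8.002, 8.52 and 8.84 at 20, 40 and 60 min, and at 7.44, 7.71 and 8.11 at 120, 180 and 240 min. The arrays at 40 and 60 min were the highest, 60 min lay 1.11 above the untreated mean, and the array at 240 min overlapped the first-hour ones. The difference from untreated was 0.72 ± 0.25, a 1.65-fold level, and the later arrays differed by -0.70 ± 0.22 (adjusted p = 0.331 and 0.188, limma). The 2 untreated arrays of Znrd1 were themselves 7.92 and 7.53, and the gene has 1 probe set.

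Polr1b, the second-largest subunit, was at 9.07 and 8.91, then at 8.84, 9.10 and 9.00, and later at 8.87, 8.80 and 8.35. Its first-hour arrays spanned the untreated ones, and the array at 240 min was the lowest. The later arrays differed by -0.32 ± 0.14 from untreated and by -0.31 ± 0.13 from the first hour. Without the 240 min array these values were -0.16 and -0.15. Polr1a, the largest subunit, was at 9.52 and 9.49, then at 9.64, 9.57 and 9.59, and later at 9.49, 9.55 and 9.52. Its first-hour arrays lay above all others by a small amount (0.10 ± 0.05, then -0.08 ± 0.04), but 2 other probe sets gave -0.13 and -0.07 in the first comparison and 0.0108 and 0.0173 in the second. Polr1c, which polymerase III also contains, was at 9.84 and 9.79, then at 9.85, 9.93 and 9.96, and later at 9.77, 9.83 and 9.88. The first-hour arrays of Polr1c lay above untreated and overlapped the later ones (0.10 ± 0.06, then -0.09 ± 0.05), and a second probe set gave 0.10 and -0.09. Thus 3 of 4 subunits were higher without overlap in the first hour (16.1% of all genes; median 0.10) and 4 of 4 were lower afterwards (median -0.20), 1 without overlap (8.50%).

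A total of 23 genes have further probe sets, 30 in all, of which 28 were above the filter. Their differences had the sign of the probe set used in 22 of 30 for 20 to 60 min against untreated and in 25 of 30 for the later arrays against the first hour. For the later arrays against untreated, where differences were near 0, the number was 16 of 30. Probe sets of 1 gene share the RNA of the same arrays, so they speak for the probes and not for the arrays.

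**Figure D5:**
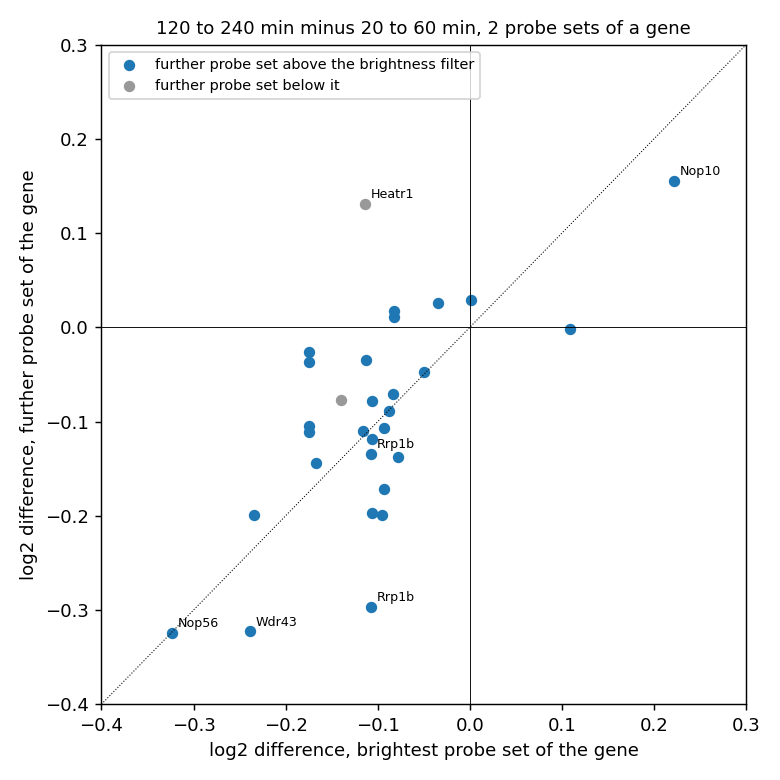
Log2 difference of each of the 30 further probe sets (vertical axis) against that of the probe set used for the same gene (horizontal axis), for 120 to 240 min minus 20 to 60 min, with grey points below the brightness filter and a dotted line of equality. Signs are shared in 25 of the 30 pairs, and the Heatr1 point at 0.13, a dim probe set, lies farthest from the line among the pairs of opposite sign.

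Several of these genes also carry small nucleolar RNA genes within their span, in many cases in introns that release the RNA on splicing. RefSeq places a small nucleolar RNA gene in the span of 8 of the 45 listed genes (17.8%) and in 7 of the 42 tested (16.7%), against 1.92% of 9187 protein-coding genes tested, without regard to strand. Nop58 holds Snord70 and Snord11, Nop56 holds Snord110 and Snord57, Ncl holds Snora75 and Snord82, and Wdr43 holds Snord92 and Snord53. Tsr1 holds Snord91a, Gnl3 holds Snord69 and Snord19, and Ppan also holds such genes. The 7 hosts had median differences of 0.14 at 20 to 60 min and -0.24 afterwards, with the latter between -0.32 and -0.11. The other 35 members had medians of 0.10 and -0.11, the latter between -0.70 and 0.22. The difference between hosts and the others was not tested, and the probe sets used here measure the host genes and not the small RNAs.

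The other genes of the pathway mostly lay in the same directions. Of 109 further ribosome biogenesis genes, 89 were tested: 74 were higher and 15 lower at 20 to 60 min (median 0.08), and 69 lower and 20 higher afterwards (median -0.09). The first-hour arrays lay above untreated without overlap in 40 of the 89 and below in 5 (16.1% and 20.1% of all genes), and the later arrays lay below the first-hour ones in 31 and above in 2 (8.50% and 13.6%). None of the 89 passed adjustment in limma, and unadjusted p was under 0.05 for 26 higher and 2 lower genes (6.67% and 7.19% of all genes), then for 29 lower and 2 higher genes (7.45% and 12.0%). Rrp8, a nucleolar methyltransferase-like protein, was at 7.98 and 7.70, then at 8.11, 8.29 and 8.41, and later at 7.66, 7.65 and 7.94. The first-hour arrays of Rrp8 lay above all others (0.43 ± 0.12, then -0.52 ± 0.11). Gtpbp4, a GTPase of the large subunit precursor, differed by 0.14 ± 0.05 and -0.20 ± 0.04, and Grwd1, a chaperone of a ribosomal protein, by 0.15 ± 0.06 and -0.23 ± 0.05.

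The other polymerases and the ribosomal proteins are given beside all genes, of which 55.5% were lower in the first hour, with a median of -0.01, and 43.8% were lower afterwards, with a median of 0.02. Of 10 RNA polymerase II subunits tested of 12, 2 were higher and 8 lower at 20 to 60 min (median -0.03), and the median afterwards was 0.02. Of 9 polymerase III subunits tested of 11, 7 were higher (median 0.07) and 6 were lower afterwards (median -0.06). Among them Polr3e differed by 0.31 ± 0.07 and -0.32 ± 0.06, and Polr3c by 0.57 ± 0.20 and -0.62 ± 0.17. Polr3k went the other way, with -0.05 ± 0.07 and 0.12 ± 0.06. Of 40 cytosolic ribosomal protein genes tested of 41, which encode the proteins that the nucleolar factors assemble, 12 were higher and 28 lower (median -0.0084), and the median afterwards was -0.0038. None of these genes passed adjustment in limma.

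Myc, a known activator of ribosome biogenesis genes, is given by its level in every array. It was at 10.30 and 10.44 without treatment, at 10.48, 10.31 and 10.37 at 20, 40 and 60 min, and at 10.19, 10.21 and 10.25 later. The first-hour arrays of Myc overlapped the untreated ones, and all 3 later arrays were the lowest. The later arrays lay 0.17 below the first hour (limma, adjusted p = 0.197) and 0.15 below untreated. Max, its dimer partner, was at 8.27 and 8.76, then at 8.06, 7.36 and 8.48, and later at 8.54, 8.20 and 8.03, with its lowest array at 40 min. Mycn, a relative of Myc, was at 7.99 and 8.13, then at 7.96, 7.90 and 8.03, and later at 7.83, 8.04 and 8.03, and its groups overlapped.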

How the data were processed

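The authors deposited linear intensities of 22690 probe sets in 8 arrays. How they summarised and scaled them was not given in the sources used here. They were used unscaled as log2(intensity + 16), which understates differences of dim probe sets. Symbols came from the platform annotation (691 probe sets with several and 1555 without a symbol were left out, with 64 controls), and 20351 of 20380 matched RefSeq (GRCm38.p6) through Entrez identifiers. The dimmest 30% of probe sets (mean below 7.04) were left out, and the brightest remaining probe set stood for each gene.

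One fit of limma 3.58.1 (lmFit and eBayes) in R 4.3.3 had 3 levels: untreated (2 arrays), 20 to 60 min (3) and 120 to 240 min (3), with 5 residual degrees of freedom. P-values were adjusted over 9294 genes (Benjamini-Hochberg, two-sided, threshold 0.05). Each time has 1 array, so the spread within a window includes differences between times. No label speaks of separate cultures, and the p-values therefore reflect only how much these arrays vary, which may be technical. Both comparisons with untreated share its 2 arrays. The fit was tested only on simulated data with independent noise and with shifts larger than most differences given here. That test does not cover differences of the members' size.

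Genes described by array are the up to 6 per step with the smallest p between the windows, up to 3 per step against the step's median, those at least 0.5 from both untreated arrays, and those whose probe sets disagree. Members and lists were chosen with earlier results of these data known. Alternatives changed the pseudocount, filter, probe set, centring and weights, added cell cycle covariates, or left out each array.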

Additional observations from a re-analysis of the deposited data

Results flagged for a closer look

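Gnl3 was singled out because its arrays lay on opposite sides of both untreated arrays in the 2 windows: all 3 first-hour arrays were above and all 3 later arrays below. The difference of the later arrays from the first hour was -0.21 (log2), with an adjusted p of 0.175 in limma, so it did not pass. No group held enough arrays for a check of single outlying arrays.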

How the results depend on the processing

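No paired analysis was possible because each tamoxifen time has 1 array and replicate numbers only name arrays. In 18 alternatives the members' median stayed between 0.08 and 0.14 for 20 to 60 min minus untreated and between -0.14 and -0.10 from there to 120 to 240 min. For 120 to 240 min minus untreated it went from -0.041 (without untreated array 2) to 0.0334 (without untreated array 1).

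Counts of genes passing in limma moved most. With array weights 2859 genes (30.8%) and 23 members passed between the windows. With the G2 and M phase covariate 585 genes (6.29%) and 7 members (Nop56, Nop58, Ddx21, Rrp12, Pes1, Nle1, Znrd1) passed at 20 to 60 min against untreated, and 531 genes (5.71%) and 9 members between the windows. With the S phase covariate 1 gene passed in each comparison (Trib3, then Npn2 in both others), and Npn2 was the 1 gene at 120 to 240 min against untreated with pseudocount 1, array weights or the G2 and M phase covariate. Leaving out 1 array gave 0 to 2 genes at 20 to 60 min (Susd4 without untreated array 1, Lce1a1 and Lce1a2 without 120 min), 0 to 1 at 120 to 240 min against untreated (Susd4), and 0 to 1024 genes (11.0%) with 0 to 11 members between the windows, the most without 240 min. These non-members were named after their values were seen.

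At 20 to 60 min Rrp1b changed sign to 0.0188 with median centring, 0.0907 as the mean of its probe sets, 0.0291 with array weights and 0.0159 with the S phase covariate. Without 1 array it ran from -0.0529 (40 min) to 0.0533 (60 min). Polr1a changed sign to -0.0365 as the mean of its probe sets. Precision is limited by the small number of arrays.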
